A study of Rattus norvegicus with 35 samples.

Results

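The genes described here build and move cilia. They were found on the arrays by gene name: a probe was a member if its name began with Ift or Bbs and a digit, or with Dnah, Dnai, Dnal, Tekt, Rsph or Spag, or was Foxj1. Letter case and a trailing mark for predicted genes were ignored. The rule found 61 of the 41012 probes, which stand for 36 genes of the 35561 gene names on the array. Of these, 21 genes were placed in a motile class, namely Foxj1, the axonemal dyneins, the tektins, Spag1, Spag6 and Spag8. The 9 Ift and Bbs genes made up a transport class. The other 6 genes share the name Spag (sperm associated antigen) and no known part in the axoneme was assumed for them. No probe had a name beginning with Rsph.

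RNA came from the olfactory epithelium of 27 Brown Norway rats and was hybridized, with 1 dye, to 35 Agilent whole rat genome arrays. The newborn group held 19 pups aged between 3 and 5 days, with 1 array each: litter L1 gave 4 of them, and L2, L3 and L4 gave 5 apiece. The 4 adult rats, aged 9 weeks, and the 4 old rats, aged 22 months, gave 2 RNA samples each, 1 per nostril, called A and B. The adult and old rats were males, while the sex of the pups is not given, no group was treated, and the tissue is a mixture of cell types. In such bulk RNA, fewer cells of a type and less RNA per cell cannot be told apart.

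A motile cilium beats because dynein arms, large motor complexes fixed to its microtubule doublets, slide the doublets against each other. Foxj1 is the transcription factor that turns on the genes of motile cilia, such as those of respiratory ciliated cells. The cilia of olfactory sensory neurons carry the odorant receptors and lack dynein arms. Both kinds of cilia are assembled by intraflagellar transport (IFT), in which protein trains run along the microtubules, and both use the BBSome, the coat complex formed by Bbs proteins that carries membrane proteins in and out of cilia.

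A level here is the log2 of a probe's background-subtracted intensity over the median intensity of its array, so a level of 1 is a doubling of that median. The median intensity was 46.0 to 96.5 on newborn arrays, 88.7 to 179 on adult arrays and 40.2 to 59.8 on old arrays. Samples A and B of a rat were averaged, so that each rat is 1 replicate. A single limma fit held the 4 litters and both older groups, with the newborn level taken as the mean of the litters. The SE and p of a newborn change thus rest on the spread of rats within groups and leave out variation among litters. A call is an adjusted p under 0.01 over the 23668 probes expressed in common, that is above background on at least 3 arrays of each litter and 6 of 8 arrays of adult and of old rats. Adult rats were scanned on days of their own, L1 on the day of the old rats, and L2 to L4 on later days. Age and scan day therefore cannot be told apart, except between L1 and old rats. Over all tested probes the median change was 0.16 (newborn minus adult), -0.04 (newborn minus old) and -0.19 (adult minus old). Quantile normalization brought these medians to -0.03, -0.05 and -0.02.

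Where a gene had several probes, the brightest stood for it. By that probe, 31 members passed the filter and were tested: 18 of the motile class, all 9 of the transport class and 4 of the other Spag genes. Dnah8, Spag11a and Spag4l were above background on no array by their brightest probe, and Spag6 and Dnahc11 passed in some age groups only.

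In newborn against adult rats, members of the motile class moved both ways. Of its 18 tested members 4 were called higher in newborn rats (Tekt4, Spag8, Dnai2 and Dnal4), where 39.6% of all tested probes were called higher. Another 5 were called lower (Dnah5, Dnah11, Spag1, Dnah6 and Tekt3), where 26.3% of all probes were. The median change of the class was -0.10, against 0.16 for all probes, but it was -0.35 without adult rat 13 and 0.08 without adult rat 16. In the transport class 1 of 9 was called higher (Ift57) and 3 lower (Bbs7, Ift88 and Bbs1), with a median change of -0.09. Relative to the median of all probes, the class medians were -0.26 and -0.25, and over the main values and 4 alternatives (other scalings, another background correction and the value table deposited by the authors) they lay between -0.26 and -0.14 for motile and between -0.41 and -0.24 for transport members.

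In newborn against old rats, no motile member was called higher and 7 of 18 were called lower in newborn rats: Dnali1, Spag1, Tekt3, Dnah11, Dnah6, Dnah10 and Tekt2. Of all tested probes 27.7% were called higher and 31.8% lower. The class median was -0.52, against -0.04 for all probes. In the transport class Ift74 was called higher, and Bbs7, Bbs4 and Ift88 were called lower, with a median of -0.16. Between L1 and old rats, which shared a scan day, 5 motile and 3 transport members were called lower and none higher, where 17.7% of all probes were called higher and 30.2% lower. The class medians of that comparison were -0.45 and -0.36. Ift74, higher in newborn rats as a whole, was not called there and had the opposite sign (-0.16).

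In adult against old rats, 3 of 18 motile members were called lower in adult rats (Tekt4, Dnal4 and Dnali1) and none higher, where 31.7% of all probes were called lower and 15.3% higher. The median change was -0.53 in the motile class and 0.14 in the transport class, in which Ift57 and Bbs4 were called lower. Relative to all probes these medians were -0.34 and 0.33. Of the same 4 alternatives only those with quantile normalization could move a relative median. With quantile normalization the values were -0.24 for motile and 0.29 for transport members. With another background correction before it they were -0.29 and 0.26, so the 2 class medians kept opposite signs. In the main fit, however, no transport member was called higher, and 6 of the 9 lay above 0 and 3 below. The list of 29 other ciliary transport genes read below had a median of -0.25, with 1 called higher and 6 lower. The difference between the classes was not tested. The count of 3 motile members depends on the spread taken from the pups: in a fit of adult and old rats alone 9 of 18 were called, 8 of them lower in adult rats, where that fit called 33.9% of all probes lower and 15.8% higher. Without pup 24 of L2 the count was 5, where 7711 of the 23668 tested probes were called lower and 3730 higher.

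**Figure D1:**
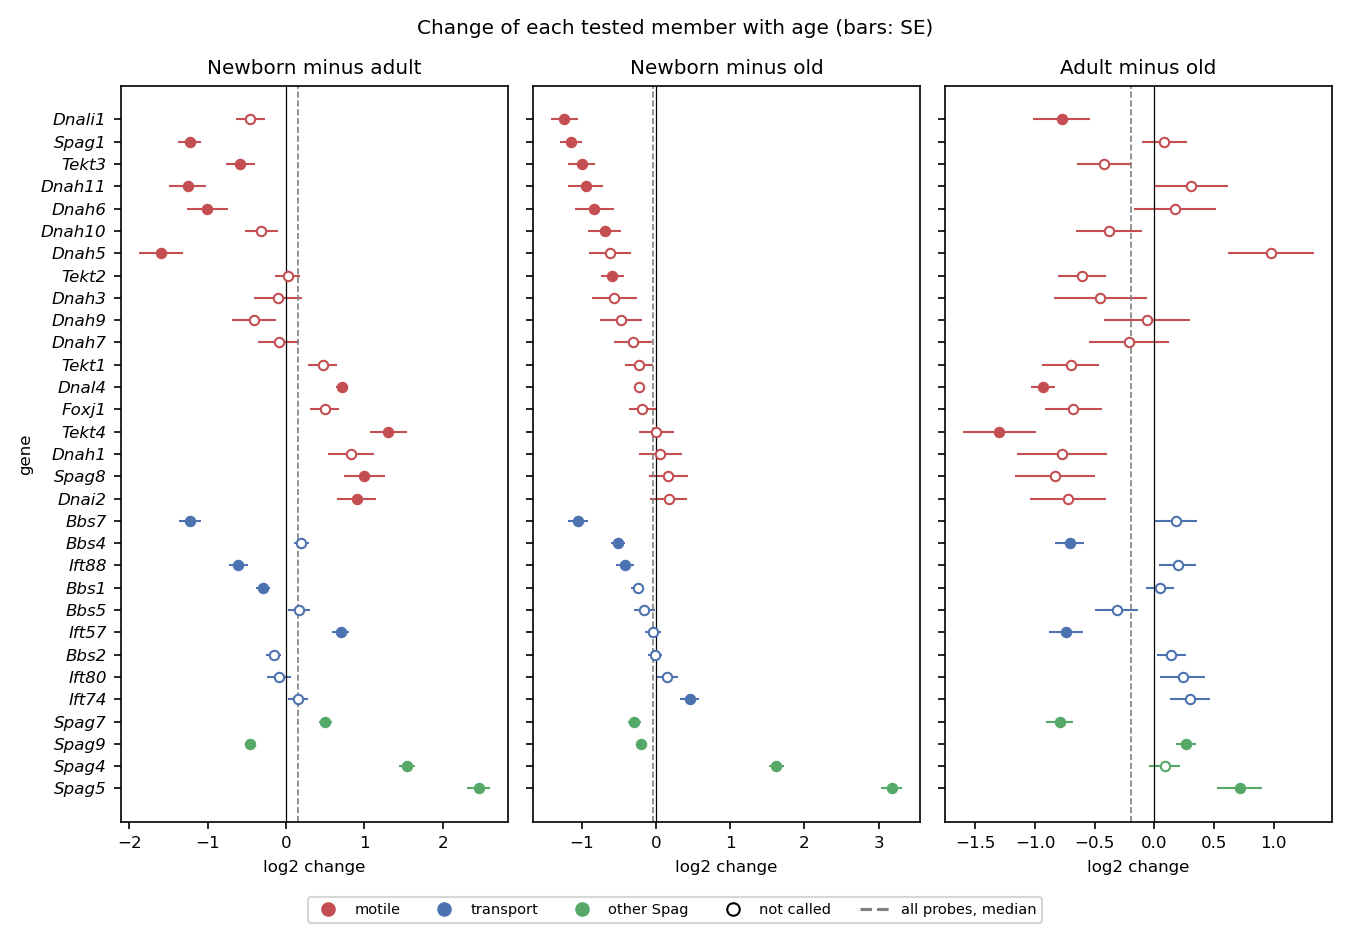
Log2 change of each tested member in the 3 comparisons of ages (points, with bars for the SE of the limma fit; filled points were called at an adjusted p under 0.01), by class, with the median of all tested probes as a dashed line. Motile members lie on both sides of 0 in newborn minus adult and mostly to the left in newborn minus old, and Spag5 has the largest change of the 31 in both.

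Foxj1 was above background on all 35 arrays. Its level lay between 8.19 and 9.52 in the 19 pups (median 8.76), was 8.15, 8.13, 8.44 and 8.56 in the adult rats, and was 8.97, 9.10, 8.96 and 8.98 in the old rats. The adult rats were all below the old rats, and the pups spanned both groups. It was not called in any comparison: the change was 0.50 ± 0.19 (SE) for newborn minus adult (limma, adjusted p = 0.019), -0.18 ± 0.19 for newborn minus old, and -0.68 ± 0.24 for adult minus old (limma, adjusted p = 0.0173). The 4 litters had means of 8.58, 8.75, 8.90 and 9.05. Its probe, for which the files give no genome position, has the following bases, written 5′ to 3′ as are all sequences here.
Foxj1: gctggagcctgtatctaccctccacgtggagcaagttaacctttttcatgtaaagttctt

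The dynein heavy chains, the motor subunits of the arms, made up 10 of the 21 motile genes and 31 of the 44 motile probes. Of these, 8 were tested. Dnah5, Dnah9 and Dnah11 belong to outer arms, and Dnah1, Dnah3, Dnah6, Dnah7 and Dnah10 to inner arms. Dnah5 had the largest change of the motile class in newborn against adult rats. Its level lay between -2.30 and -0.37 in the pups (median -1.34), was -0.28, -0.09, 0.44 and 1.07 in the adult rats, and was -0.34, -0.74, -0.73 and -0.97 in the old rats. Every pup lay below every adult rat, and the change was -1.60 ± 0.28 (limma, adjusted p = 1.7e-05). Dnah11 fell below both older groups, by -1.26 against adult and -0.95 against old rats, and so did Dnah6, by -1.0 and -0.83. Dnah10 was called lower in newborn than in old rats only, with changes of -0.31 against adult and -0.69 against old rats.

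Several heavy chains changed little between ages in comparison with their spread. Dnah9 lay between 3.83 and 5.75 in the pups (median 4.96), at 4.59, 4.97, 5.59 and 6.12 in the adult rats and at 5.57, 5.50, 5.31 and 5.15 in the old rats. These groups overlapped, and adult and old rats differed by -0.06 ± 0.36. Dnah7 lay between 1.02 and 2.79 in the pups (median 1.86), at 1.25, 1.73, 2.12 and 2.73 in the adult rats and at 2.57, 2.18, 2.08 and 1.87 in the old rats, again with overlap of every pair of groups. Dnah1, with a level between 4.36 and 6.39 in the pups (median 5.56), was at 3.99, 4.43, 4.80 and 5.46 in the adult rats and at 5.81, 5.50, 5.33 and 5.12 in the old rats. Its newborn and old levels differed by 0.06 ± 0.29, and its change of 0.83 ± 0.29 against adult rats missed the threshold (limma, adjusted p = 0.0137). Dnah3 was called in no comparison.

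Probes of 1 heavy chain gene did not always move together. The 2 tested probes of Dnah5 had means of -1.32 and -0.83 in newborn, 0.28 and -1.65 in adult and -0.70 and -0.50 in old rats. The first was lower in newborn than in adult rats by 1.60 on the log2 scale, as given above, and the second was 0.85 higher, with an adjusted p of 0.0108 in limma. Likewise the second probe of Dnah11 changed by 0.44 in newborn against adult rats, where the first changed by -1.26, and by -1.06 in adult against old rats, where the first changed by 0.31. The rat build rn3 places the first Dnah5 probe at chr2:80312434-80312493 and the second, which spans more than the length of the probe, at chr2:80193230-80197811, both on the plus strand. The Dnah11 probes lie on the minus strand at chr6:145202591-145202650 and chr6:145376152-145376211. The sequences are shown because the direction given for these genes depends on which of them is read.
Dnah5 probe 1: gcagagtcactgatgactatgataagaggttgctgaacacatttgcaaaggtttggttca
Dnah5 probe 2: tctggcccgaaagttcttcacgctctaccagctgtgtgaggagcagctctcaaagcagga
Dnah11 probe 1: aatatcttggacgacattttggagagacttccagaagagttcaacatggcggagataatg
Dnah11 probe 2: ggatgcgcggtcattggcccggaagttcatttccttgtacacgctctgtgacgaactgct

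In newborn against old rats the paired probes of both genes had the same sign. Dnah1 also differed in sign between its probes in newborn against adult rats, at 0.83 and -0.14, with neither called. Of the 4 tested probes of Dnah6, the first and second were called lower in newborn than in adult rats and the other 2 were not, at 0.30 and -0.10. None of the 4 tested probes of Dnah7 was called in any of the 3 comparisons. Of the 31 heavy chain probes 14 did not pass the filter, including all 3 of Dnah8 and all 3 of Dnahc11. The array gives the name Dnahc11 to probes on another chromosome than Dnah11, so which gene they measure is not known, and it is counted among the 10 by its name alone. The brightest Dnahc11 probe was above background on 19 of 19 newborn, 4 of 8 adult and 7 of 8 old arrays. Its level lay between -1.38 and -0.33 in the pups (median -0.84) and was -2.12, -1.95, -2.40 and -2.26 in the adult and -1.61, -1.55, -1.38 and -1.43 in the old rats. Every pup lay above every adult rat, of whose arrays 4 did not measure the probe above background, and no test is given.

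**Figure D2:**
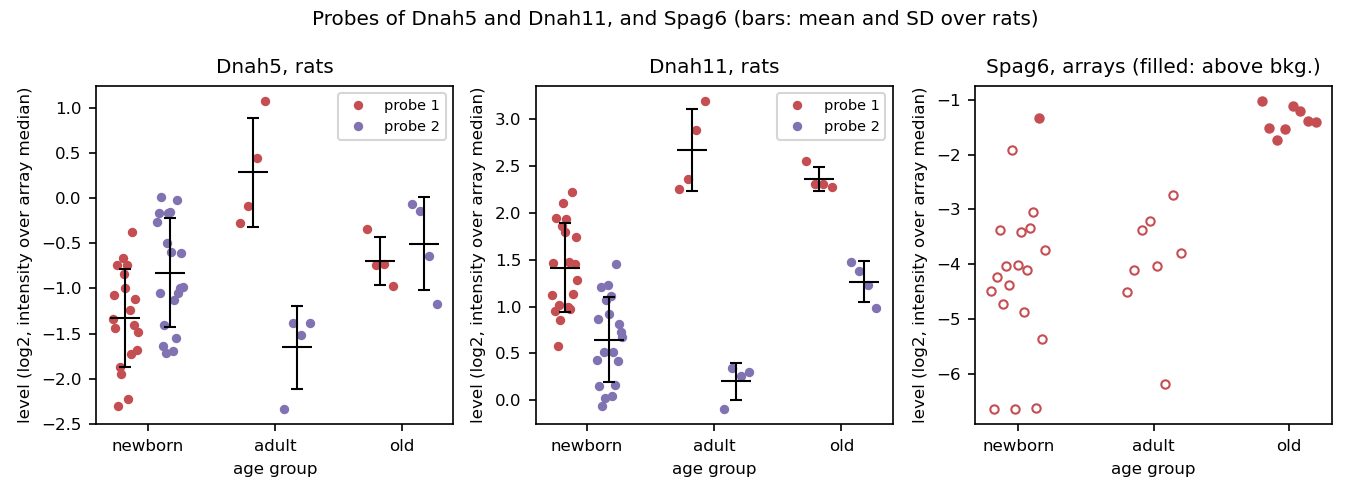
Levels of the 2 tested probes of Dnah5 and Dnah11 in each rat (left and middle, with mean and SD over rats) and of Spag6 on each array (right; filled points are above background), by age group. From newborn to adult rats the 2 probes of each gene part, and Spag6 is above background on 8 of 8 old arrays and on 1 of the other 27.

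The smaller dynein chains went different ways. Dnali1, a light intermediate chain of inner arms, had the largest change of the motile class in newborn against old rats. Its level lay between 6.34 and 7.74 in the pups (median 7.16), was 7.43, 7.31, 7.64 and 7.71 in the adult rats, and was 8.29, 8.28, 8.22 and 8.41 in the old rats. All old rats lay above all pups and adult rats, with changes of -1.23 ± 0.18 and -0.78 ± 0.24 (limma, adjusted p = 2.5e-06 and 0.0071), although its second probe was called in neither comparison, at -0.49 and -0.36. Dnai2, an intermediate chain of outer arms, was higher in newborn than in adult rats by 0.90 and changed by 0.17 between newborn and old rats. Dnal4, a dynein light chain, was 0.71 higher in newborn than in adult rats and 0.93 lower in adult than in old rats on the log2 scale, and both of its probes were called in both comparisons.

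The tektins form filaments along the doublets of cilia and flagella, and the 4 of them differed from each other. Tekt4 lay between 6.89 and 8.79 in the pups (median 7.81), at 5.99, 6.34, 6.71 and 7.12 in the adult rats and at 7.99, 7.93, 7.76 and 7.68 in the old rats. The adult rats were thus all below the old rats, and 17 of 19 pups lay above every adult rat, with changes of 1.31 ± 0.24 in newborn against adult and -1.30 ± 0.30 in adult against old rats (limma, adjusted p = 2.64e-05 and 0.000798). Newborn and old rats differed by 0.01 ± 0.24, the smallest change of the class in that comparison. Tekt2 lay between 6.68 and 8.06 in the pups (median 7.60), at 7.65, 7.3, 7.54 and 7.42 in the adult rats and at 8.04, 8.15, 7.93 and 8.23 in the old rats. Newborn and adult rats differed by 0.02 ± 0.16 with the main scaling, but with quantile normalization Tekt2 was called lower in newborn rats, at -0.52. Tekt3 was lower in newborn rats than in both older groups, by -0.58 and -1.0, and Tekt1 was called in none of the 3 comparisons.

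Of the Spag genes of the motile class, Spag1 acts in the cytoplasm in the assembly of dynein arms. Its level lay between 1.04 and 2.51 in the pups (median 1.88), was 2.98, 2.86, 3.29 and 3.41 in the adult rats, and was 2.90, 3.06, 3.04 and 3.20 in the old rats. Every pup lay below every older rat, while adult and old rats overlapped. The changes were -1.23 ± 0.15 against adult and -1.15 ± 0.15 against old rats (limma, adjusted p = 4.89e-08 and 2.19e-07). Spag8, found in the doublets and in the sperm tail, was 1.0 higher in newborn than in adult rats.

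Spag6, a protein of the central pair of microtubules, was above background in the old rats and hardly elsewhere. It was above background on 8 of 8 old arrays, on 0 of 8 adult arrays and on 1 of 19 newborn arrays. Its level was -1.27, -1.64, -1.16 and -1.39 in the old rats, -4.31, -3.3, -5.11 and -3.27 in the adult rats and between -6.64 and -1.34 in the pups (median -4.10). Since it was not well above background on any adult array, old rats were at least 2.15-fold higher than adult rats, setting the mean of the old rats against the mean, per adult array, of whichever was higher, its own level or the lowest level among probes well above background. For the pups, of which 1 was above background, no size is given for the difference. The probe lies at chr17:92856514-92856573 on the plus strand of rn3.
Spag6: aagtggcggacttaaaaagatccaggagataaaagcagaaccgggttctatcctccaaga

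In the transport class, the genes with an Ift name on the array were all of the IFT-B complex, which carries cargo towards the tip of the cilium. Ift57 lay between 6.51 and 7.48 in the pups (median 6.95), at 6.16, 6.16, 6.42 and 6.48 in the adult rats and at 7.04, 7.06, 7.01 and 7.07 in the old rats. Every adult rat lay below every pup and every old rat, with changes of 0.70 ± 0.11 and -0.74 ± 0.14 (limma, adjusted p = 3.8e-06 and 9.16e-05). Ift57 changed by -0.04 ± 0.11 between newborn and old rats. Its low level in adult rats alone was shared with Tekt4 and Dnal4 of the motile class.

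Ift74 and Ift80 were nearer to level over the ages. Ift74 lay between 5.27 and 6.77 in the pups (median 6.36), at 5.91, 5.79, 6.31 and 6.32 in the adult rats and at 5.62, 5.86, 5.77 and 5.88 in the old rats, and was called only in newborn against old rats (0.45 ± 0.13). Ift80 lay between 4.09 and 5.50 in the pups (median 4.89), at 4.84, 4.73, 4.98 and 4.95 in the adult rats and at 4.56, 4.57, 4.65 and 4.79 in the old rats. It was called in no comparison, with changes of -0.09 ± 0.15, 0.15 ± 0.15 and 0.24 ± 0.19. Ift88 was lower in newborn rats by -0.61 against adult and -0.42 against old rats.

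Among the BBSome subunits, Bbs7 had the largest change in the transport class against both older groups. Its level lay between 2.71 and 3.74 in the pups (median 3.22), was 4.39, 4.20, 4.63 and 4.56 in the adult rats, and was 4.20, 4.22, 4.16 and 4.49 in the old rats. Every pup lay below every older rat, with changes of -1.23 ± 0.14 and -1.05 ± 0.14 (limma, adjusted p = 1.7e-08 and 3.11e-07). Between L1 and old rats of the same scan day the change was -1.26 ± 0.18. Bbs7 thus had nearly the change of Spag1, but the Bbs genes differed among themselves.

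Bbs4 separated the old rats from the others. It lay between 4.15 and 4.81 in the pups (median 4.39), at 4.36, 4.27, 4.39 and 3.94 in the adult rats and at 4.92, 5.06, 4.82 and 4.99 in the old rats, with changes of -0.51 ± 0.09 and -0.71 ± 0.12 against old rats (limma, adjusted p = 3.37e-05 and 2.11e-05). Bbs2 lay between 4.04 and 5.06 in the pups (median 4.62), at 4.80, 4.65, 4.79 and 4.79 in the adult rats and at 4.58, 4.60, 4.62 and 4.68 in the old rats, and was called in no comparison of ages. Bbs1 lay between 3.15 and 4.34 in the pups (median 3.78), at 4.08, 3.97, 4.16 and 4.16 in the adult rats and at 4.05, 4.06, 3.96 and 4.13 in the old rats. Its newborn level was lower than the adult level by -0.29 ± 0.09 (limma, adjusted p = 0.0058), with overlap of pups and adult rats, and adult and old rats differed by 0.04 ± 0.12. L1 and L2 had Bbs1 means of 3.63 and 3.47, below the adult mean of 4.09. L3 and L4, at 4.02 and 4.08, lay near the adult mean. Bbs5 was called in no comparison of the main fit.

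Among the other Spag genes, Spag5, a protein of the mitotic spindle, lay between 4.39 and 5.42 in the pups (median 4.93), at 2.32, 2.19, 2.49 and 2.52 in the adult rats and at 1.68, 1.48, 1.56 and 1.95 in the old rats. The 3 age groups did not overlap, and newborn rats were 5.50-fold above adult and 9.02-fold above old rats (limma, adjusted p = 2.28e-13 and 3.25e-15). Spag4, a protein of the nuclear envelope, was 2.90-fold and 3.08-fold higher in newborn rats. Spag7 was higher in newborn than in adult rats by 0.50 and lower than in old rats by -0.29, and Spag9, a scaffold of kinase signalling, was lower in newborn rats by -0.46 and -0.20. Beside Spag5, 8 of 9 markers of dividing cells were called higher in newborn rats against each older group (as were 39.6% and 27.7% of all tested probes), with median changes of 2.62 and 3.3, and their summed intensity was 508 to 840 array medians in newborn, 114 to 180 in adult and 93.9 to 107 in old rats. Their part in the result was not tested.

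Differences among the 4 litters were called for 1 of 18 motile, 3 of 9 transport and 2 of 4 other Spag members, where 36.4% of all tested probes were called. Bbs1 had means of 3.63 ± 0.15, 3.47 ± 0.20, 4.02 ± 0.15 and 4.08 ± 0.21 (SD) in L1 to L4 (limma F test, adjusted p = 5.38e-05). Ift74 was lower in L1, at 5.63 ± 0.34, than in the other litters, at 6.47 ± 0.19, 6.44 ± 0.22 and 6.42 ± 0.27 (limma F test, adjusted p = 0.000254). Tekt3 was the motile member called, with means of 2.42 ± 0.41, 1.97 ± 0.32, 2.94 ± 0.38 and 2.86 ± 0.48. Spag4 was lowest in L2, at 1.12 ± 0.12 against means of 1.59 to 1.67, and Bbs2 was lowest in L1, at 4.26 ± 0.20 against 4.65 to 4.75. Spag7 was the other gene called. L1 lay on a slide of its own and was scanned on another day than the other litters, of which 4 pups of L2, 3 of L3 and 4 of L4 each shared a slide. Litter and slide are thus nearly the same split, and with the slide as a random block 1 motile and 2 transport members were called, where 18.5% of all probes were.

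The motile members stood out less by their mean change than by their spread among rats of the same group. The SD over rats, with the 6 group means removed, had a median of 0.459 over the 18 motile members (0.137 to 0.589), against 0.227 in the transport class (0.162 to 0.28) and 0.205 over all tested probes. Of the motile members 16 lay above the upper quartile of all probes, which was 0.289, and no transport member did. The exceptions in the motile class were Spag1 (0.275) and Dnal4 (0.137), and the largest SD were those of the heavy chains Dnah3 (0.589), Dnah1 (0.566) and Dnah9 (0.545). Among the adult and old rats alone the median SD was 0.349 for motile, 0.162 for transport and 0.159 for all probes. The SD between samples A and B of these rats had a median of 0.225, 0.105 and 0.133.

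**Figure D3:**
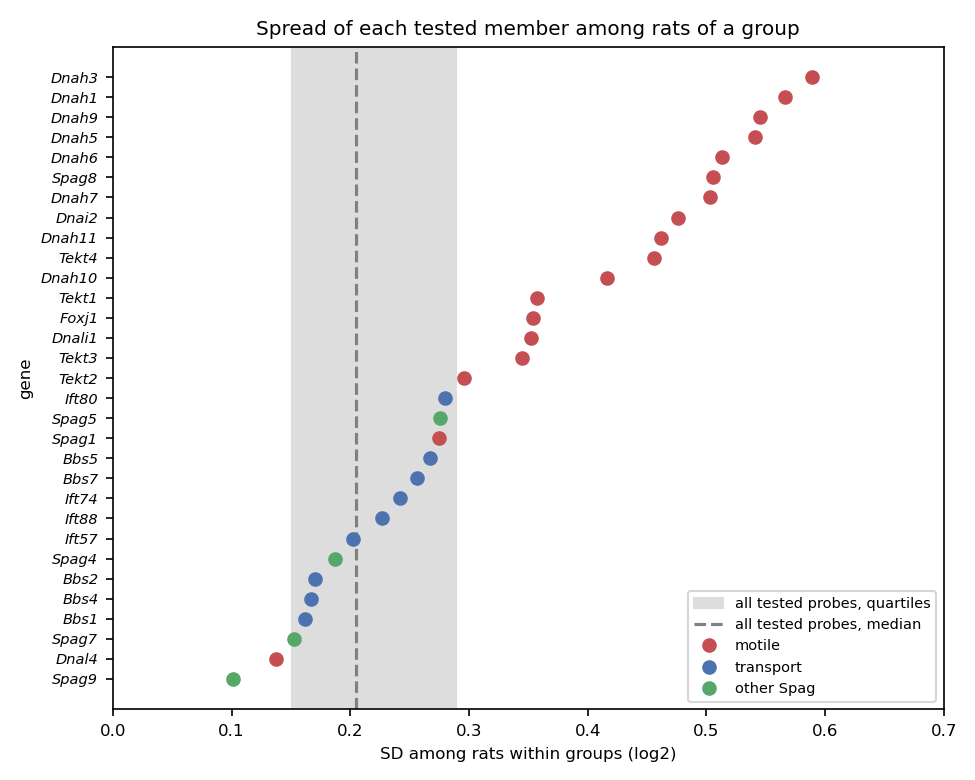
SD of the log2 level of each tested member among rats of a group, by class, with the median of all tested probes as a dashed line and their middle quartiles shaded. The heavy chains lie at the right, beyond the upper quartile of 0.289, and all 9 transport members lie within the shaded range.

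The median level of the motile class showed the same in each rat. In L1 it was 3.97, 4.28, 3.73 and 4.60, and the pups of L2 had 3.27, 3.72, 3.61, 4.83 and 4.54. For L3 the values were 5.08, 4.80, 4.57, 4.45 and 3.95, and for L4 5.37, 4.25, 4.69, 4.79 and 4.35. It was 3.58, 3.5, 3.94 and 4.10 in the adult rats and 4.58, 4.38, 4.32 and 4.37 in the old rats. The pups thus spanned 2.10 on the log2 scale, the adult rats 0.60 and the old rats 0.27. The transport median spanned 0.78 in the pups, 0.15 in the adult rats and 0.21 in the old rats. These ranges set 19 pups of 4 litters, with 1 array each, against groups of 4 rats with averaged arrays. A range grows with the number of rats. Within L1 to L4 the motile median spanned 0.87, 1.56, 1.13 and 1.12, and the transport median 0.53, 0.49, 0.51 and 0.63.

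These levels were also read by slide. The 4 pups of L2 on 1 slide spanned 3.27 to 4.54 in the motile median, and the 4 pups of L4 on another spanned 4.25 to 5.37, so the spread was present within slides. The adult rats at 3.58 and 3.5 shared a slide and a scan day, and those at 3.94 and 4.10 shared the other, so rat and slide cannot be told apart in that group.

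Single rats decided some calls. Of the 40 called changes of members between ages, 15 were lost when 1 rat was left out, though none of them changed sign. Dnali1 in adult against old rats lost its call without adult rat 13, 14 or 15 or any of the 4 old rats, and Dnah6 in newborn against old rats lost it without any of 12 rats (9 pups and old rats 17, 18 and 19). Against adult rats, Dnah6 lost its call without adult rat 15 or 16, Spag8 without 13, Dnai2 without 13 or 14, and Tekt3 and Bbs1 without 13, 15 or 16. Against old rats, newborn rats lost the call of Tekt2 without old rat 20, of Dnah10 without 18, 19 or 20, of Ift74 without 17 or 19, of Ift88 without 18 or 20 and of Spag7 without 17, 18 or 20. Spag9 lost each of its 2 calls against old rats without any of 6 rats, and Spag5 that of adult against old rats without old rat 18. The calls of Tekt4, Ift57, Bbs7, Bbs4, Spag1, Dnah5, Dnah11 and Dnal4 were kept without each of the 27 rats.

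**Figure D4:**
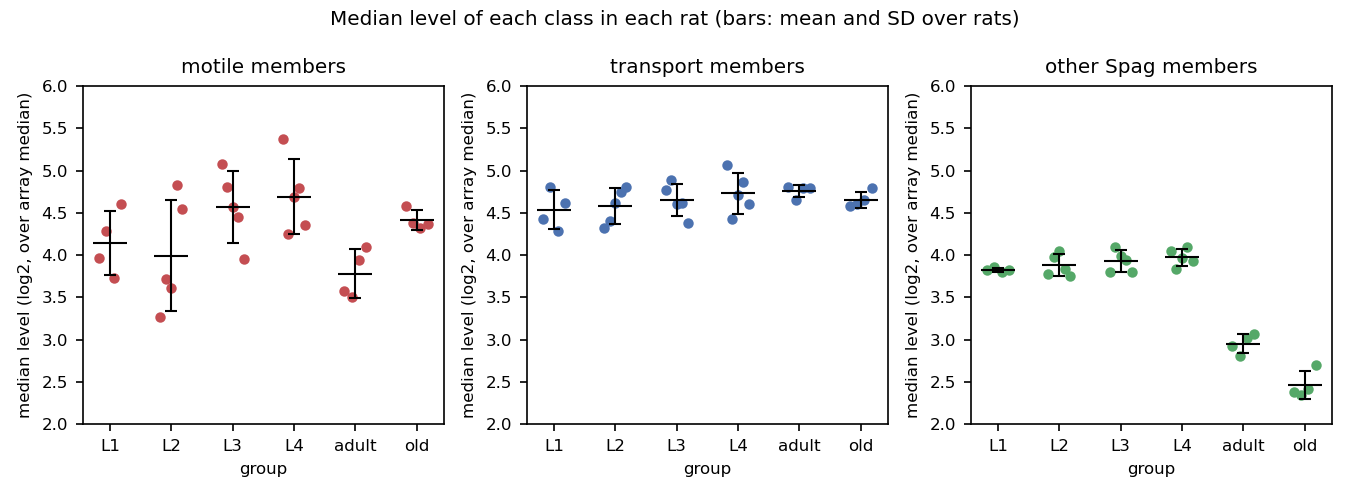
Median log2 level of the tested members of each class in each rat (points) by litter and age group, with the mean and SD over rats. The motile median ranges from 3.27 to 5.37 in the pups, the transport median stays between 4.28 and 5.06 in all 27 rats, and the other Spag median is higher in every pup than in any older rat.

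The motile genes deviated together from rat to rat. After the group means were removed, the correlation of pairs of motile members over the 27 rats had a median of 0.87 (153 pairs), and the median was 0.75 for motile with transport members (162 pairs) and 0.81 within the transport class (36 pairs). With the other Spag genes the median was -0.005 for motile and 0.07 for transport members, but 0.51 and 0.64 in the 8 adult and old rats alone, where motile with transport members also had 0.50. The values are a description, since the points of a group share slides and scan days. Pairs of all tested probes were not read beside them. The median over motile pairs was 0.91 in the 19 pups alone, 0.77 in the 8 adult and old rats and 0.85 without the 2 rats farthest from their group.

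With Foxj1, the correlation had a median of 0.90 over the other 17 tested motile members and 0.82 over the transport members, against 0.24 over all other tested probes. In the 8 adult and old rats these medians were 0.83, 0.67 and 0.30. Tekt1 (0.96), Tekt4 (0.95) and Dnali1 (0.95) were highest, and 0.152%, 0.241% and 0.27% of the tested probes had a higher value than these. Dnal4 (0.62) was lowest in the motile class. In the transport class Ift57 (0.94) and Bbs1 (0.90) were highest and Bbs4 (0.09) was lowest. With Foxj1 left out of the class, the pup with the highest Foxj1 level in each litter also had the highest median deviation of the motile members, and the pup with the lowest had the lowest. In the adult rats the highest was the same rat and the lowest was not, and in the old rats neither was the same.

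**Figure D5:**
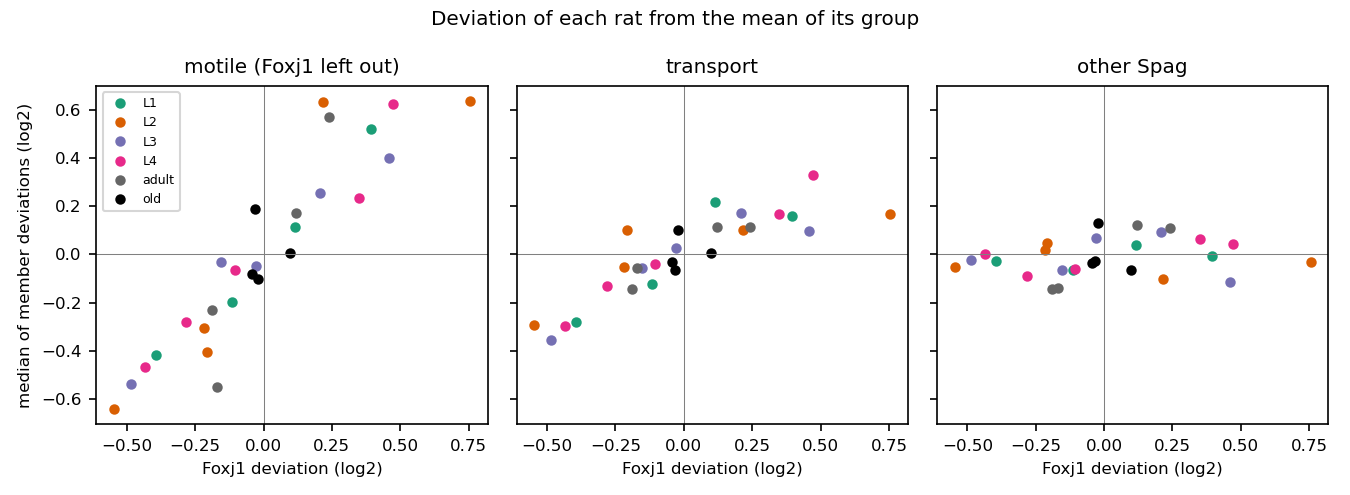
Median of the members' deviations from their group means plotted against the deviation of Foxj1 (log2, 1 point per rat, coloured by group), for the motile class without Foxj1, the transport class and the other Spag genes. The motile points lie along a steep line, the transport points along a flatter one and the other Spag points near 0, with median correlations of single members with Foxj1 of 0.90, 0.82 and 0.02.

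Markers of the cells that could carry these cilia were read beside the members. Of the list for ciliated respiratory cells 7 genes were matched by the array's name or by the current symbol of a probe. Of these, Foxj1, Tekt1 and Spag6 are members themselves. Dnah5, also on the list and a member, was not matched because the array names it Dnahc5 and its probes were not matched to the current symbol Dnah5. Its first probe was called lower in newborn than in adult rats, at -1.60, and its second probe was not called, at 0.85. The other 4 of the 7 matched genes, Ccdc39, Dnai1, Rsph1 and Dynlrb2, were tested, none was called in any of the 3 comparisons, and their median correlation with Foxj1 was 0.95. Their summed intensity was 183 to 582 array medians in newborn, 190 to 324 in adult and 313 to 359 in old rats. These 4 markers are themselves genes of motile cilia. Dnai1 and Rsph1 belong to families of the rule, and Ccdc39 and Dynlrb2 are also in the list of other motile cilium genes read below. The 9 markers of mature olfactory sensory neurons were all called lower in newborn rats against both older groups (as were 26.3% and 31.8% of all tested probes), with medians of -2.25 and -2.87 and a summed intensity of 202 to 446 in newborn, 1207 to 1630 in adult and 1837 to 2495 in old rats. Omp, the classical marker of these neurons, was 5.30-fold lower in newborn than in adult rats and 8.66-fold lower than in old rats. No tested motile or transport member changed as much in these comparisons. The median correlation of the mature neuronal markers with Foxj1 was 0.24, that of all probes. Of 9 tested markers of immature olfactory sensory neurons, 6 were called higher and 2 lower in newborn than in adult rats. Against old rats 7 were called higher and 1 lower, and the 2 median changes were 0.78 and 1.42. Of all tested probes 39.6% and 27.7% were called higher in these comparisons, and 26.3% and 31.8% lower. What part changes in cell composition have in the members' changes was not tested.

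Markers of secretory respiratory cells, which also lie outside the sensory epithelium proper, were mostly carried by Bpifa1 and Cyp2f4, and Ltf was well above background on 1 of 35 arrays. Of 6 tested, 3 were called higher in newborn than in adult rats, 4 lower in adult than in old rats, and in newborn against old rats 1 was higher and 2 were lower. Of all tested probes, 39.6%, 31.7%, 27.7% and 31.8% were called in these same directions. The summed intensity of the secretory markers was 6679 to 10047 array medians in newborn, 5614 to 6811 in adult and 11404 to 13673 in old rats. The part of respiratory tissue in the preparations was not tested.

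Other genes of motile cilia, from a list of names that holds no member, were read beside the motile class. Of 31 tested, 7 were called higher and 3 lower in newborn than in adult rats, 4 and 7 when set against old rats, and 2 and 8 for adult minus old, with medians of 0.37, -0.11 and -0.49. Of all tested probes 39.6% were called higher and 26.3% lower in newborn than in adult rats. These shares were 27.7% and 31.8% against old rats, and 15.3% and 31.7% for adult minus old. Spef2, a protein of the central pair, was 2.84-fold lower in newborn than in old rats, and Drc1, a subunit of the nexin-dynein regulatory complex, 2.35-fold lower, while Cep41 was 2.39-fold higher. Of 29 other genes of ciliary transport tested, 8 were called higher and 5 lower in newborn than in adult rats, 3 and 12 when set against old rats, and 1 and 6 for adult minus old, with medians of -0.08, -0.23 and -0.25. The shares of all tested probes are those just given. Ttc8, a further BBSome subunit, was 1.63-fold lower in newborn than in old rats, and Pde6d, which binds lipidated cargo, was 2.59-fold lower in newborn than in old rats. Dynlt1, a dynein light chain, was 1.71-fold higher in newborn than in old rats.

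Some genes of the same families were on the array under older names and were not members by the rule. There were 13 of them by the current symbol of the probe's accession, and 11 were tested. In newborn against old rats 3 were called lower and none higher: Spag6l (-1.21), Ift70a2 (-0.94) and Ift172 (-0.53). Of all tested probes 31.8% were called lower and 27.7% higher there. The median changes of the 11 genes were 0.01, -0.19 and -0.42 in the 3 comparisons.

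The members lie on many chromosomes, 35 genes with a position in rn3 falling on 17 of them. Promoters from RefSeq (build GRCr8, 300 bases around the start) were found for 17 motile, 6 transport and 4 other Spag genes by symbol. The motif GTTGCC, the half-site of the X-box bound by RFX factors, was searched on both strands. It was present in 8 of 17 motile promoters (47.1%), in 4 of 6 transport promoters (66.7%) and in 13.1% of the promoters of all 27457 genes in the table. GTAAACA, a core that forkhead proteins such as Foxj1 bind, was present in 2 of 17 motile (Dnali1 and Tekt3) and in 0 of 6 transport promoters, against 4.13% of all. The pair GTTNCC followed by GGNAAC was in no member's promoter and in 0.929% of all, and the 3 patterns can overlap. The pattern with a gap was read with up to 3 bases between its parts. Such matches are a description of letters and not of bound sites. The 3 promoters below are examples, from Tekt4, Dnali1 and Bbs5, whose correlations with Foxj1 from rat to rat were 0.95, 0.95 and 0.86. Among other genes that hold GTTGCC, Tekt1 (0.96) was above Tekt4 and Bbs1 (0.90) was above Bbs5. Each of the 3 promoters holds 1 of the motifs, in capitals, with GGCAAC and TGTTTAC the opposite strand of GTTGCC and GTAAACA. They lie at chr10:14992034-14992333 (plus strand), chr5:142611921-142612220 (minus strand) and chr3:74818390-74818689 (plus strand).
Tekt4 promoter: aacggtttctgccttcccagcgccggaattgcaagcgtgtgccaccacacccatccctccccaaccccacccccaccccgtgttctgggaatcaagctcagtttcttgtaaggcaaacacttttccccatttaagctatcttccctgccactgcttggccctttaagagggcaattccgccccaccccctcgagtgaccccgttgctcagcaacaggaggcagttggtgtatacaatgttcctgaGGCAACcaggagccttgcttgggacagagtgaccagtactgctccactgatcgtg
Dnali1 promoter: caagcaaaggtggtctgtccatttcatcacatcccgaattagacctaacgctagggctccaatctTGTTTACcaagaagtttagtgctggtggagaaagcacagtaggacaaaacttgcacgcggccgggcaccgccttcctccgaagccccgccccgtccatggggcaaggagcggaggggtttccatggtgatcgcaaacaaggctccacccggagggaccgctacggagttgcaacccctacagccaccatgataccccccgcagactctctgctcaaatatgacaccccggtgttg
Bbs5 promoter: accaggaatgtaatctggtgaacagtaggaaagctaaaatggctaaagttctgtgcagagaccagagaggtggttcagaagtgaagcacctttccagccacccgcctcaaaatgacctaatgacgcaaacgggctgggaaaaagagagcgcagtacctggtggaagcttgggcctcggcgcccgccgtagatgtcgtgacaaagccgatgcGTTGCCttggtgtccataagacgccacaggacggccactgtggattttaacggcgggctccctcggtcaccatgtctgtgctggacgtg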

How the data were processed

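Olfactory epithelium RNA was measured on 35 arrays of 1 colour. The deposited intensity values are the scanner output of Agilent Feature Extraction (9.5.1.1 for adult arrays and 9.5.3.1 for the others, per the file headers), background-subtracted by that software. The authors also deposited a table of normalized ratio values, linear, with array medians of 0.723 to 0.978, which served as an alternative. On the log2 scale 99.83% of the 33942 probes compared differed from the median-scaled intensities by 1 constant over the arrays (SD under 0.05), and per the methods each probe was divided by its own median over the arrays of the study. Control spots were left out, and outlier spots were left out of the mean intensity of each probe. That intensity was divided by the median over the 43379 non-control spots of its array, outlier spots among them. It was floored at 0.01 and log2 transformed, with samples A and B of a rat averaged.

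Groups came from the labels. The 6 groups (4 litters, adult, old) were fitted with limma 3.58.1 in R 4.3.3 over 23668 probes, with Benjamini-Hochberg adjustment over all of them and a threshold of 0.01. Newborn rats entered both comparisons with older rats, adult and old rats 2 comparisons each, so the comparisons share samples. Positions are those of rn3 in the array design. In data simulated for newborn against adult rats over 23668 probes, 52% of changes of 0.5, 78% of changes of 1, 98% of changes of 2 and 84% of changes of -1 (log2, 50 probes each) were called. Only these probes were changed, whereas in the real data 39.6% of probes were called higher and 26.3% lower. They were drawn from all tested probes, with a median SD of 0.205, against 0.459 for motile members. The shares therefore do not give the power for the members. The number of arrays limits the precision, and no depth applies to arrays.

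The members, classes and gene lists were chosen with earlier results of these data known. Every member could be named. Values per rat were given for Foxj1, for the 2 tested members of the motile and of the transport class with the largest and the 2 with the smallest change in each comparison of ages, for members above background in 1 age group only and for at most 5 members called among litters, and from the other lists the 3 genes with the largest change in newborn against old rats could be named. Dnahc11, Omp and the secretory markers were named after their values were seen. The alternatives were 75th percentile scaling, quantile normalization, normexp with an offset of 50 followed by quantile normalization, the authors' ratios, other filters and floors, random blocks for rat, slide and scan day, litter means, fits of only the groups compared, the methods' t-test and leaving out each rat.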

Additional observations from a re-analysis of the deposited data

Results flagged for a closer look

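In 7 of 198 groups tested, 1 rat lay far from the others of its group by Dixon's test at the 95% level, which chance gives in about 1 of 20 groups. The number beside each is the gap to the nearest rat over the range of the group. Adult rat 14 had a Bbs2 level of 4.65, against 4.79 to 4.80 in the other adult rats (0.983), and since Bbs2 is the median transport member in these rats, the transport median of the adult group stood apart by the same 0.983. Old rat 17 had a Dnah11 level of 2.55, against 2.28 to 2.31 (0.899). Old rat 18 had a Foxj1 level of 9.10, against 8.96 to 8.98 (0.846). Pup 21 of L2 had a Dnal4 level of 5.71, against 5.87 to 5.93 (0.729). Pup 32 of L4 had a Spag4 level of 2.03, against 1.49 to 1.59 (0.823), and pup 26 of L3 a Spag9 level of 2.84, against 3.02 to 3.05 (0.849).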

How the results depend on the processing

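Of 40 called changes of members between ages, 24 kept call and sign under all 41 alternatives, 16 lost the call under at least 1 and 1 of these reversed. The 40 came from 93 pairs of gene and comparison, and 21 of the uncalled pairs were called under at least 1 alternative. No paired analysis was possible because the rat numbers differ between all groups. In newborn against adult rats the transport median was -0.394 with quantile normalization and -0.422 with normexp followed by quantile normalization, which called 8 of 9 members (1 higher, 7 lower, where 30.9% and 35.3% of all probes were). That combined setting, called normexp below, also turned Bbs5 to -0.42 and Ift74 to -0.43, and Tekt2 was -0.522 with quantile normalization and -0.491 with normexp. With L1 alone against old rats the transport median was -0.356 and Ift74 was -0.156. In adult against old rats, motile members called numbered 6 with the rat as a random block, 8 with litter means, 6 with the slide as a block, 9 with only the groups compared and 6 by the methods' t-test. These 5 fits called 28.7% to 34.2% of all probes lower and 12.2% to 16.3% higher. Over every tested motile probe of the main fit 5 of 29 were called, where 31.7% of all probes were called lower and 15.3% higher. Transport members called numbered 4 with quantile normalization and 6 with normexp (22.9% and 23.6% of all probes higher, 22.6% lower in both). Among litters, 2 motile members were called with the 75th percentile, quantile normalization or normexp (40.3%, 38.8% and 36.7% of all probes). Leaving out 1 rat, motile members called ranged from 6 to 11 (newborn against adult), 5 to 8 (newborn against old), 2 to 5 (adult against old, 5 without pup 24 of L2) and 1 to 2 (litters, 2 without pup 25, 30 or 32), and transport members from 3 to 4, 3 to 5, 2 to 2 and 2 to 3. Of the 23668 tested probes, these fits called 8566 to 9479 higher and 5525 to 6340 lower in newborn against adult rats. The ranges were 5881 to 6649 and 6505 to 7669 in newborn against old rats. They were 3095 to 3730 and 6590 to 7711 in adult against old rats. Among litters, 7084 to 9079 probes were called with 1 pup left out. The motile median ranged from -0.347 (without adult rat 13) to 0.083 (without adult rat 16) in newborn against adult rats, from -0.568 to -0.405 in newborn against old rats and from -0.664 to -0.454 in adult against old rats, and the transport median from -0.138 to -0.052, -0.247 to -0.085 and 0.117 to 0.177. The cause was not tested. Dim members are limited by signal over background.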

Other observations

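The 2 nostril samples of a rat differed in the motile class in some rats. The median of sample A minus sample B over the 18 motile members was 0.37 in adult rats 13 and 14 (17 and 18 members higher in A), 0.05 and -0.17 in adult rats 15 and 16, 0.19, -0.31 and -0.11 in old rats 17, 18 and 19, and 0.26 in old rat 20. Over the 9 transport members it lay between -0.17 and 0.16. Which nostril is A is not given, and no test was made.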
